A study of Homo sapiens with 12 samples.

Results

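The 9 genes described here encode surface and uptake proteins of the proximal tubule brush border, or an enzyme of the same cells: ANPEP, ENPEP, MME, DPP4, ENPP3, GGT1, CUBN, LRP2 and AGXT2. They were taken by gene name from the deposited table, which lists 58735 genes, and all 9 were found. Polyadenylated RNA was measured in 12 libraries, 3 in each of 4 groups, from 786-O, an established human clear cell renal cell carcinoma line with mutated VHL. Cells were transduced with lentivirus and drug-selected, carrying either an empty vector or BBOX1, which hydroxylates gamma-butyrobetaine to carnitine. The groups were empty-vector cells in culture, BBOX1 cells in culture, empty-vector xenografts and BBOX1 xenografts. Cultures were grown in serum-containing DMEM, and xenografts in NSG mice, an immunodeficient strain that keeps mouse stroma and myeloid cells, aged 6 to 8 weeks. All groups therefore share 1 cell line, and the empty vector is the control in both settings. The labels call the libraries triplicates and do not say whether different cultures or mice lie behind them; p-values cover only how much these samples vary, possibly for technical reasons.

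The proximal tubule takes back most filtered peptides, proteins and solutes across a dense layer of microvilli, the brush border. Ectopeptidases on the microvilli trim peptides such as angiotensins and enkephalins, gamma-glutamyltransferase begins the breakdown of extracellular glutathione, and the receptors cubilin and megalin carry filtered proteins into the cell. Clear cell carcinoma is held to arise from this epithelium, and several of these enzymes are used as its tissue markers.

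Total counts ran from 13729031 to 26758712 per library. BBOX1 was at 1066 to 1094 CPM (read counts scaled to a common library size over all 12 libraries) in BBOX1 cells and 1271 to 1894 CPM in BBOX1 xenografts, against 0 in empty-vector cells and 0.327 to 0.826 CPM in empty-vector xenografts. All 9 markers of the carcinoma line had counts in every group, led by VIM, CA12 and PAX8. Of 22 proximal tubule markers, none of them among the 9 genes, 8 had 0 counts in each culture group, and SLC22A6, PCK1 and G6PC had 0 counts in every library, so the tubule label holds for part of that programme only. Replicate 1 of the BBOX1 xenografts stood apart: its counts differed from those of replicates 2 and 3 by a chi-square of 41.0 and 40.9 per degree of freedom, against 8.61 between replicates 2 and 3, and up to 14.8 in empty-vector xenografts and 2.70 in culture. Results that rest on it are given with and without it. Xenografts can hold host cells, and the table counts human genes only. Endothelial markers summed to 0.704 to 3.40 CPM and macrophage and leukocyte markers to 2.44 to 5.37 CPM over all libraries, with CDH5, AIF1, LYZ, CD163 and TYROBP at 0 everywhere. Erythroid markers reached at most 0.767 CPM and adipocyte markers 3.19 CPM. Fibroblast and pericyte markers, 12 genes, summed to 13.2 to 17.5 CPM in culture and to 266 to 454 CPM in xenografts. COL1A1 at means of 190 and 242 CPM, and COL3A1 at 115 and 82.8 CPM, carried most of that sum in empty-vector and BBOX1 xenografts, while DCN was at or below 0.0228 CPM and COL1A2 at or below 0.141 CPM there.

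Promoter stretches are shown for AGXT2, CUBN and MME, 3 of the 4 genes that fell with BBOX1 in xenografts, since these members moved together in that comparison. That of ANPEP, which fell as well, is not shown. They come from RefSeq on GRCh38.p14, where 9 of 9 genes matched, with 14 transcription starts, and are written 5′ to 3′ on the strand of the gene. Capitals mark a match to CAAAGTCCA or CAAAGGTCA, forms of the motif of HNF4, a family of kidney and liver epithelial factors. The CUBN stretch is chr10:17129818-17130061, minus strand, the AGXT2 stretch chr5:35047954-35047983, minus strand, and the MME stretch chr3:155079422-155079646, plus strand, before the first of 4 starts and with no match. The AGXT2 and MME stretches lie within the gene coordinates given below. Annotated exons cover 186 of the 250 bases before the AGXT2 start and 25 before that MME start, so the AGXT2 match may be in transcribed sequence.
AGXT2: catcttaatctCAAAGTCCAgcaggatagt
CUBN: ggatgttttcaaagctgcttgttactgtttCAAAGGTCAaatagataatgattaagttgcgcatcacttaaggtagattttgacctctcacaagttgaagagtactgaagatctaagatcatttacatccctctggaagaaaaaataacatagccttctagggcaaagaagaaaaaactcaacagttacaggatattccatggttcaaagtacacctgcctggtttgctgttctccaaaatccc
MME: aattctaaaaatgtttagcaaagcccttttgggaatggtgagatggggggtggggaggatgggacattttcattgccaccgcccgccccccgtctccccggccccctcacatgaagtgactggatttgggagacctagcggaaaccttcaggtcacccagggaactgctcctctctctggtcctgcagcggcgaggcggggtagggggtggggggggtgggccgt
In windows of 300 bases, 250 before and 50 after each start, and on both strands, an HNF4-type match was in 2 of the 14 member windows and in 0.79% of 34943 windows of all genes. The hypoxia response core ACGTG was in 2 of 14, for DPP4 and the fourth MME start, and in 21.38% of all. These matches are a description of letters, not of bound sites.

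ANPEP, the membrane alanyl aminopeptidase that removes neutral residues from peptide N-termini, was the member with the largest fall in BBOX1 xenografts. Its gene, ENSG00000166825, lies on chromosome 15 at 89784889 to 89815401, minus strand, in GRCh38. The 3 empty-vector cultures were at 125, 112 and 114 CPM and the 3 BBOX1 cultures at 80.2, 82.1 and 83.4 CPM. The empty-vector xenografts were at 269, 302 and 169 CPM and the BBOX1 xenografts at 68.1, 70.2 and 70.0 CPM. In both settings every BBOX1 library was below every empty-vector library, and the BBOX1 xenografts lay in a narrow range while the empty-vector xenografts varied widely. The log2 fold change with BBOX1 was -0.52 (SE 0.04, edgeR adjusted p = 2.55e-11) in culture and -1.82 (SE 0.19, edgeR adjusted p = 0.000477) in xenografts. The difference between these changes was -1.31 (SE 0.21, edgeR adjusted p = 0.00348), and this call held when any single library was left out. In xenografts 170 of 16126 tested genes had a lower log2 fold change than ANPEP.

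**Figure D1:**
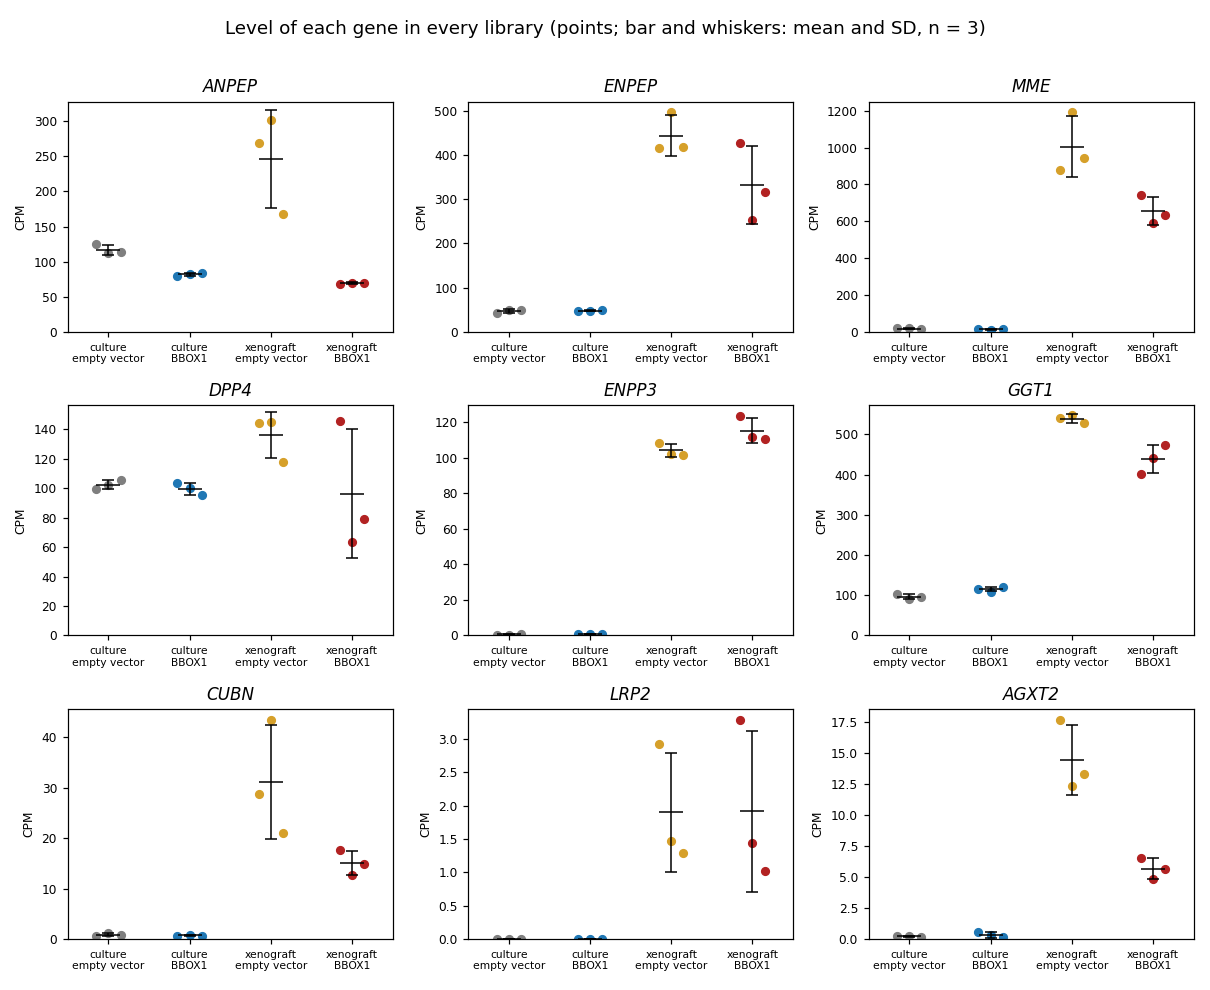
Level of each of the 9 genes in every library, in CPM on the axis of each panel, with points for libraries and bars and whiskers for the mean and SD of 3. ANPEP and DPP4 are expressed in culture at over 80 CPM, most other members are far higher in xenografts, and LRP2 is at 0 in all 6 cultures.

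AGXT2, a mitochondrial aminotransferase of kidney that handles beta-aminoisobutyrate and dimethylarginines, is the member that is not a surface protein. Its gene, ENSG00000113492, is on chromosome 5 at 34998101 to 35048135, minus strand. Cultures held 4, 4 and 4 counts with the empty vector and 16, 6 and 2 counts with BBOX1, too few for a test there. Empty-vector xenografts were at 17.7, 12.4 and 13.3 CPM and BBOX1 xenografts at 6.58, 4.87 and 5.62 CPM. All BBOX1 xenografts were below all empty-vector xenografts, and the log2 fold change was -1.34 (SE 0.21, edgeR adjusted p = 0.0059). Against culture the difference of the BBOX1 effect was -2.15 (SE 0.56, edgeR adjusted p = 0.0404). That difference rests on 12 and 24 counts in the culture groups and was lost on leaving out any of 9 of the 12 libraries, with an adjusted p up to 0.237, whereas the fall within xenografts held.

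MME, neprilysin, cleaves enkephalins, natriuretic peptides and other short peptides. Its gene, ENSG00000196549, is on chromosome 3 at 155024124 to 155183729, plus strand. In culture it was at 18.6, 18.5 and 17.0 CPM with the empty vector and 13.8, 12.2 and 12.8 CPM with BBOX1. In xenografts it was at 877, 1190 and 942 CPM with the empty vector and 741, 592 and 634 CPM with BBOX1. The BBOX1 libraries were the lower ones in both settings with no overlap. MME fell with BBOX1 by 0.47 on the log2 scale in culture (SE 0.09, edgeR adjusted p = 0.000284) and by 0.61 in xenografts (SE 0.15, edgeR adjusted p = 0.0453). The xenograft call was lost on leaving out any single library other than BBOX1 replicate 1, with an edgeR adjusted p up to 0.234 and a log2 fold change of -0.70 to -0.47 among those that lost it. The difference of the effect between settings was -0.14 (SE 0.17, edgeR adjusted p = 0.675).

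CUBN encodes cubilin, the receptor for intrinsic factor with cobalamin, albumin and other filtered proteins. Its gene, ENSG00000107611, is on chromosome 10 at 16823966 to 17129817, minus strand. In culture it was between 0.536 and 1.26 CPM in all 6 libraries. Empty-vector xenografts were at 28.8, 43.5 and 21.1 CPM and BBOX1 xenografts at 17.6, 12.7 and 14.9 CPM, with no overlap. In xenografts CUBN changed with BBOX1 by -1.04 on the log2 scale (SE 0.24, edgeR adjusted p = 0.0333). This call was lost without empty-vector replicate 1 or 2 or BBOX1 replicate 2 or 3, with an edgeR adjusted p of 0.0641 to 0.146 and log2 fold changes of -1.10 to -0.73. In culture the change was -0.31 (SE 0.39, edgeR adjusted p = 0.664).

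LRP2 encodes megalin, the large endocytic receptor that carries cubilin and its ligands into the cell. Its gene, ENSG00000081479, is on chromosome 2 at 169127109 to 169362685, minus strand. It had 0 counts in all 6 culture libraries, which allows a mean of up to 0.0536 CPM with the empty vector and 0.0489 CPM with BBOX1, counting 3 reads over each group. Empty-vector xenografts held 44, 27 and 22 counts and BBOX1 xenografts 48, 21 and 16 counts, which overlap. The change with BBOX1 in xenografts was 0.02 (SE 0.49, edgeR adjusted p = 0.981), smaller than its error, and it was -0.61 without BBOX1 replicate 1, the highest library. It was also below 0 without empty-vector replicate 2 (-0.14) or 3 (-0.19), so its direction was not stable. The BBOX1 effect in culture could not be estimated for LRP2.

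GGT1 encodes gamma-glutamyltransferase, which splits the gamma-glutamyl bond of extracellular glutathione. Its gene, ENSG00000100031, is on chromosome 22 at 24583750 to 24629005, plus strand. Culture values were 102, 90.4 and 96.2 CPM with the empty vector and 117, 109 and 120 CPM with BBOX1. Xenograft values were 539, 549 and 527 CPM with the empty vector and 402, 440 and 473 CPM with BBOX1. BBOX1 libraries were all higher in culture and all lower in xenografts. GGT1 rose by 0.25 on the log2 scale in culture (SE 0.04, edgeR adjusted p = 4.44e-05), and the change in xenografts of -0.29 (SE 0.12, edgeR adjusted p = 0.161) did not pass. The difference of the effects was -0.55 (SE 0.11, edgeR adjusted p = 0.0152), lost without BBOX1 culture replicate 1 or 3 or empty-vector culture replicate 2 or 3, with an edgeR adjusted p up to 0.0567. GGT1 values are uncertain because 16.17% of its 100-base transcript windows also occur in other genes, mainly GGTLC2, GGT2 and GGT3P, and it shares 306 exonic bases with SNRPD3 on the same strand.

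**Figure D2:**
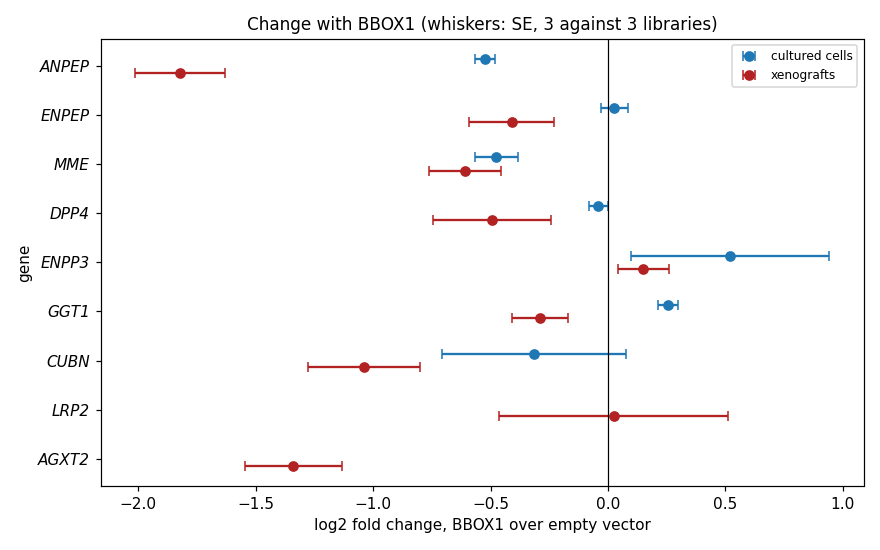
Log2 fold change of BBOX1 over empty vector on the x axis for each gene, in culture and in xenografts, with whiskers of 1 SE from 3 against 3 libraries. ANPEP is at -0.52 in culture and -1.82 in xenografts, and GGT1 is on opposite sides of 0; LRP2 and AGXT2 have no culture estimate.

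ENPEP, glutamyl aminopeptidase, converts angiotensin II to angiotensin III. Its gene, ENSG00000138792, is on chromosome 4 at 110365733 to 110565285, plus strand. Cultures were at 42.6, 48.6 and 49.7 CPM with the empty vector and 47.7, 46.7 and 50.1 CPM with BBOX1. Xenografts were at 415, 498 and 418 CPM with the empty vector and 428, 253 and 318 CPM with BBOX1. Groups overlapped in both settings. The log2 fold change with BBOX1 was 0.03 (SE 0.06, edgeR adjusted p = 0.804) in culture and -0.41 (SE 0.18, edgeR adjusted p = 0.187) in xenografts. Without BBOX1 xenograft replicate 1 the latter was -0.63 (edgeR adjusted p = 0.00438).

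DPP4, dipeptidyl peptidase, removes dipeptides from incretins and chemokines. Its gene, ENSG00000197635, is on chromosome 2 at 161992241 to 162074542, minus strand. Cultures ran from 95.2 to 106 CPM over both groups. Empty-vector xenografts were at 145, 145 and 118 CPM, and BBOX1 xenografts at 146, 63.8 and 79.4 CPM. BBOX1 replicate 1 was the highest of the 6 xenografts and replicates 2 and 3 were the lowest. In xenografts DPP4 changed by -0.49 on the log2 scale (SE 0.25, edgeR adjusted p = 0.245), and without BBOX1 replicate 1 it was -0.92 (edgeR adjusted p = 0.000699). In culture it was -0.04 (SE 0.04, edgeR adjusted p = 0.549).

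ENPP3, an ectonucleotidase that hydrolyses extracellular nucleotides, had few reads in culture and over 100 CPM in every xenograft. Its gene, ENSG00000154269, is on chromosome 6 at 131628442 to 131747418, plus strand. Cultures held 5, 8 and 19 counts with the empty vector and 23, 16 and 11 counts with BBOX1. Xenografts were at 109, 102 and 102 CPM with the empty vector and 124, 112 and 111 CPM with BBOX1. All BBOX1 xenografts were above all empty-vector ones, but the change of 0.15 on the log2 scale (SE 0.11, edgeR adjusted p = 0.416) did not pass. In culture it was 0.52 (SE 0.42, edgeR adjusted p = 0.464).

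In culture, 1 of the 7 members that could be tested rose with BBOX1 and 2 fell, where 16.4% of 14960 tested genes were called in either direction (8.44% rose, 7.96% fell). These 3 were also the members whose culture groups did not overlap, against 15.9% of tested genes with BBOX1 higher and 15.1% with it lower. The median log2 fold change of the 7 was -0.04 against 0.00 for all tested genes, and LRP2 and AGXT2 were not tested. In xenografts 4 of 9 fell and 0 rose, where 5.54% of 16126 tested genes were called (3.63% fell, 1.91% rose). DESeq2 also gave 0 that rose and 4 that fell, and at an unadjusted p under 0.05 edgeR gave 0 and 6. Shares over all genes at these settings are not given here and need not equal those of the main test. The median of the 9 was -0.49 against 0.02 for all. Groups did not overlap in 6 of 9, of which 5 were lower with BBOX1, against 15.4% of all tested genes, and ENPP3 was higher, against 13.9%. In the test of the difference, which has no estimate for LRP2, 3 of the other 8 fell and 0 rose, where 5.19% of 16927 genes were called (3.26% fell, 1.93% rose). DESeq2 gave 0 and 3 there too, and edgeR gave 0 and 4 at an unadjusted p under 0.05. Their shares over all genes are again not given. Without BBOX1 xenograft replicate 1 the counts that fell became 6 in xenografts, where 2447 of 16685 genes fell, and 5 in the difference, where 2754 of 17407 did. Mitochondrially encoded genes held 6.78% to 8.99% of counts in empty-vector xenografts and 7.96% to 13.7% in BBOX1 xenografts; their part in these results was not tested.

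Between culture and xenograft with the empty vector, the 5 members with enough reads in culture to pass the filter there, ANPEP, ENPEP, MME, DPP4 and GGT1, all rose. The other 4, ENPP3, CUBN, AGXT2 and LRP2, entered the test through the xenografts alone. The filter itself favoured a difference in these 4, so their values are a description and are given without p-values. MME rose by 5.81 on the log2 scale (SE 0.13, edgeR adjusted p = 5.88e-12). ENPP3 was higher by 7.51 (SE 0.16), CUBN by 5.13 (SE 0.31) and AGXT2 by 6.04 (SE 0.27), and LRP2 was at least 35.4-fold higher. The 4 members with most reads in culture rose less. ENPEP rose by 3.25 (SE 0.09, edgeR adjusted p = 3.17e-11), GGT1 by 2.50 (SE 0.07, edgeR adjusted p = 2.81e-11) and ANPEP by 1.08 (SE 0.16, edgeR adjusted p = 5.69e-05). DPP4 rose by 0.42 (SE 0.08, edgeR adjusted p = 0.000505), but not with all 12 libraries in 1 fit (edgeR adjusted p = 0.0925). Of all 15914 tested genes 68.6% were called (35.5% rose, 33.1% fell), and groups did not overlap in 36.9% with xenografts higher and 36.3% with xenografts lower. The 5 members that passed in culture were all among the former. The other 4 were too, which the filter favoured.

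With BBOX1, 7 of 9 members rose from culture to xenograft, 1 fell and 1 did not pass, where 68.2% of 15906 tested genes were called (36.1% rose, 32.1% fell). AGXT2 and LRP2, 2 of the 7, again passed the filter only through the xenografts. Groups did not overlap in 8 of 9, all but DPP4, against 37.8% of tested genes with xenografts higher and 36.3% with xenografts lower. ENPP3 rose by 7.16 (SE 0.14), MME by 5.68 (SE 0.13), CUBN by 4.40 (SE 0.23), ENPEP by 2.81 (SE 0.18) and GGT1 by 1.95 (SE 0.10). AGXT2 rose by 3.90 (SE 0.39), and LRP2 was at least 39.2-fold higher. ANPEP fell by 0.22 (SE 0.08, edgeR adjusted p = 0.0334). This did not pass on leaving out any of the 3 BBOX1 culture libraries, with an edgeR adjusted p of 0.0704 to 0.0913. DPP4 changed by -0.03 (SE 0.26, edgeR adjusted p = 0.926), and by -0.52 without BBOX1 xenograft replicate 1 (edgeR adjusted p = 0.000147). The empty-vector and BBOX1 comparisons across settings share no libraries with each other, but each shares libraries with the BBOX1 comparisons within a setting. In whole-tumour RNA, fewer cells of a type and less RNA per cell cannot be told apart. Mitochondrially encoded genes held 3.22% to 3.54% of counts in culture, below every xenograft, and collagen genes moved with the setting as given above; their part in these rises was not tested.

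**Figure D3:**
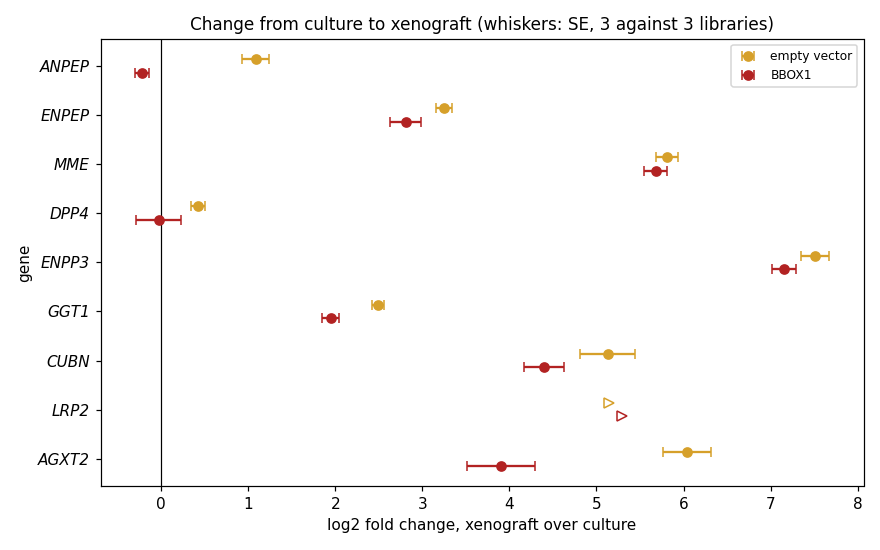
Log2 fold change of xenograft over culture on the x axis for each gene, for the empty vector and for BBOX1, with whiskers of 1 SE. ENPP3 rises by 7.51 with the empty vector and 7.16 with BBOX1, MME by 5.81 and 5.68, and ANPEP is 1.08 with the empty vector and -0.22 with BBOX1; LRP2, at 0 in culture, is a lower bound without a whisker.

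Levels of different genes were compared per kilobase of exon. In empty-vector culture ANPEP at 24.1, GGT1 at 21.7 and DPP4 at 20.4 CPM per kb led, with neighbours overlapping, followed by ENPEP at 6.02 and MME at 1.88 CPM per kb, and the other 4 were at or below 0.139. In BBOX1 culture GGT1 at 26.0 CPM per kb, DPP4 at 19.9 and ANPEP at 16.8 were separate. In empty-vector xenografts GGT1 at 121 and MME at 104 CPM per kb overlapped, ENPEP at 56.9 and ANPEP at 50.6 overlapped, and so did DPP4 at 27.2 and ENPP3 at 26.8. AGXT2 at 3.66 and CUBN at 2.35 overlapped, and LRP2 was lowest at 0.117 CPM per kb. In BBOX1 xenografts the order was GGT1, MME, ENPEP, ENPP3, DPP4, ANPEP, AGXT2, CUBN and LRP2, from 98.9 to 0.118 CPM per kb, and ANPEP at 14.3 overlapped DPP4 at 19.2 above it, but not AGXT2 at 1.44 below it. ANPEP thus had the highest mean of the members in empty-vector culture, overlapping GGT1, and ranked below 5 of them in BBOX1 xenografts.

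**Figure D4:**
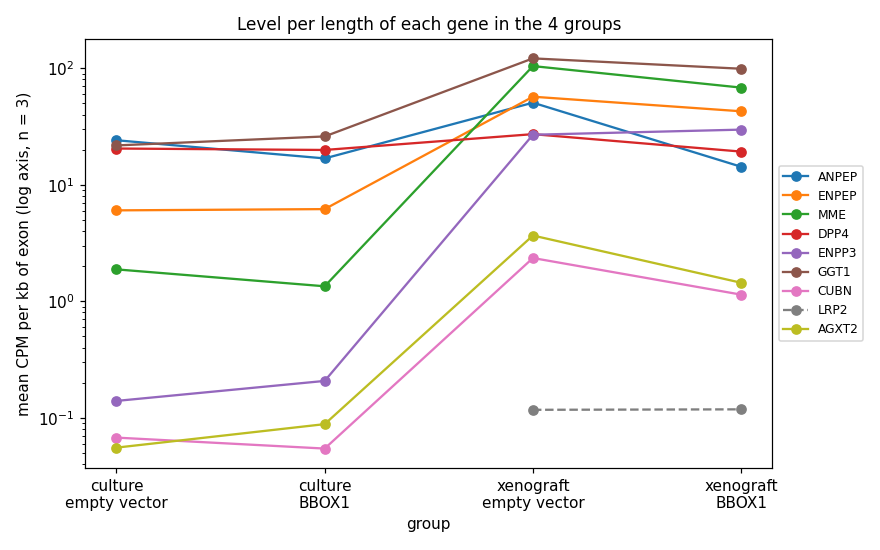
Mean level per kilobase of exon of each gene in the 4 groups, on a log axis, without whiskers for the spread. GGT1 and MME lead in both xenograft groups, at 121 and 104 and at 98.9 and 68.1 CPM per kb, and LRP2 in culture, at 0, is not drawn.

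Over the 12 libraries, log2 CPM of 7 members ran closely together, and ANPEP and DPP4 followed another pattern. ENPEP, MME, ENPP3, GGT1, CUBN, LRP2 and AGXT2 had pairwise Pearson correlations of 0.960 to 0.993, while ANPEP and DPP4 correlated at 0.639 with each other and at 0.195 to 0.430 with the 7. The points share the 4 groups, so these values mostly restate the culture-to-xenograft step. By the same measure the protein-coding genes most like ANPEP were EIF2B3, PLEK2 and ANKRD50, at 0.966, 0.960 and 0.956. For DPP4 they were SLC30A1, B4GALT1 and RIN2, at 0.965, 0.964 and 0.950. For MME they were CHST15, PRIMA1 and EGFL6, at 0.998, 0.997 and 0.997, for ENPEP TSPAN9, SOD2 and L1CAM, at 0.998, 0.996 and 0.996, and for AGXT2 PRSS8, EFNA1 and LSR, at 0.995, 0.992 and 0.991. The nearest gene was ANO9 for ENPP3 at 0.997, MYO1G for GGT1 at 0.997, PPARD for CUBN at 0.994 and RASEF for LRP2 at 0.992.

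Of 20 genes of the brush border scaffold, the microvillar core, the tip complex and the PDZ proteins under it, 16 could be tested for BBOX1 in xenografts. ESPN, an actin bundler, rose and 4 fell, where 1.91% and 3.63% of all tested genes did. The list's median log2 fold change was -0.29 against 0.02 for all genes. USH1C, the harmonin of the tip complex, was at 74.7, 91.6 and 50.4 CPM with the empty vector and 20.5, 17.3 and 18.4 CPM with BBOX1, and changed by -1.94 on the log2 scale (SE 0.20, edgeR adjusted p = 0.000468). MYO7B, the myosin of the same complex, was at 12.0, 14.2 and 12.9 CPM against 5.21, 3.70 and 3.58 CPM, a change of -1.64 (SE 0.21, edgeR adjusted p = 0.00186). ANKS4B, their binding partner, held 34, 34 and 27 counts with the empty vector and 2, 0 and 0 with BBOX1, a ratio of 42.3 (95% exact interval 11.4 to 355, for counting error only). ANKS4B passed the filter only through the empty-vector xenografts, so the filter itself favoured its call, which is a description. These 3 genes of 1 complex did not overlap between groups, where 15.4% of all tested genes were lower with BBOX1 without overlap. They were named for the smallest p of the list in this same comparison, so this is no separate result. The protocadherins of that complex, CDHR2 and CDHR5, changed by -0.34 and -0.17 and did not pass. CDHR5 was above 0 without BBOX1 replicate 2 (0.11) or empty-vector replicate 2 (0.41). SLC9A3R1, the scaffold NHERF1, changed by -0.48 in xenografts (edgeR adjusted p = 0.0429) and 0.30 in culture (edgeR adjusted p = 8.88e-07), and the difference was -0.78 (SE 0.12, edgeR adjusted p = 0.0022). ESPN changed by 0.94 in xenografts (SE 0.22, edgeR adjusted p = 0.0374); it and SLC9A3R1 in xenografts were named after their values were seen. The xenograft calls of USH1C and MYO7B held in all 13 alternatives run. That of SLC9A3R1 was lost without any xenograft other than BBOX1 replicate 1 (edgeR adjusted p up to 0.198) and with the replicate number as a block (edgeR adjusted p = 0.107), and that of ESPN without BBOX1 replicate 3 or any empty-vector xenograft (up to 0.175). Without BBOX1 replicate 1, 1 scaffold gene rose and 9 fell, where 2447 of 16685 tested genes fell, and the share that rose is not given. In culture 1 of 14 tested scaffold genes rose and 3 fell, SLC9A3R2 by 0.43 and PODXL by 0.19 on the log2 scale among them, where 8.44% and 7.96% of all tested genes did. From culture to xenograft 9 rose and 5 fell of 17 with the empty vector, where 35.5% and 33.1% of all tested genes did. Of the 9, MYO7B, ANKS4B and PROM1 passed the filter only through the xenografts, so the filter itself favoured their calls. MYO7B was at 6.29 (4, 1 and 4 counts in culture), and ANKS4B and PROM1 were both at 0 in culture. USH1C at 6.49 had passed in culture. With BBOX1 5 rose, MYO7B again only through the xenografts, and 4 fell of 14, where 36.1% and 32.1% of all did, with USH1C at 4.21, ESPN at 4.28 and PDZK1 at 0.93.

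**Figure D5:**
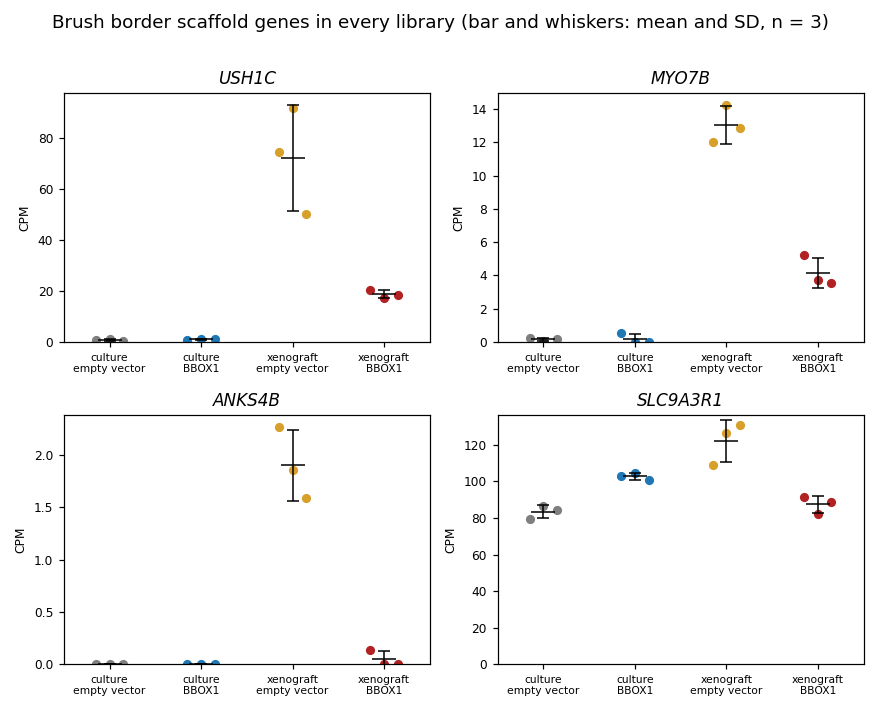
USH1C, MYO7B, ANKS4B and SLC9A3R1 in every library, in CPM, with mean and SD of 3. The BBOX1 xenografts lie below the empty-vector xenografts in each panel, at 20.5 or less against 50.4 or more for USH1C.

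Partners of megalin and cubilin in endocytosis, 15 listed, were mostly not called with BBOX1. Of 14 tested, 2 rose and 3 fell in culture (8.44% and 7.96% over all genes), among them CLTC (-0.10), APPL1 (-0.18) and GIPC1 (0.11), and in xenografts only FCGRT, the neonatal Fc receptor, fell, by 0.66 on the log2 scale (edgeR adjusted p = 0.0466), where 3.63% of all genes fell. From culture to xenograft 6 rose and 5 fell with the empty vector (35.5% and 33.1% over all genes), and 6 and 6 with BBOX1 (36.1% and 32.1%). FCGRT rose by 3.69 and 3.64, LRPAP1, the megalin chaperone, by 0.99 with the empty vector, and CLTC, clathrin heavy chain, changed by -1.29 and -1.52. The FCGRT fall with BBOX1 was lost without any xenograft other than BBOX1 replicate 1 (edgeR adjusted p up to 0.14). Without BBOX1 replicate 1 the xenograft count of the list was 2 that rose and 7 that fell. Over all, 2447 of 16685 tested genes fell, and the share that rose is not given. GIPC1 was lost without BBOX1 culture replicate 2 or 3 or empty-vector culture replicate 3 (edgeR adjusted p up to 0.132).

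Other membrane peptidases and ectoenzymes, 30 listed, gave 4 falls and 0 rises of 13 tested in culture (7.96% and 8.44% over all genes, and 0 rises by DESeq2, with 8 falls and 1 rise at an unadjusted p under 0.05 in edgeR), among them ENPP1 (-0.27), NT5E (-0.17) and BST1 (-0.79). In xenografts 1 of 13 fell, where 3.63% of all did: ERAP2, an aminopeptidase that trims antigenic peptides in the endoplasmic reticulum, by 0.70 on the log2 scale (SE 0.15, edgeR adjusted p = 0.0236). Its means were 188 CPM with the empty vector and 115 CPM with BBOX1, and the call was lost on leaving out any 1 of replicates 2 and 3 of either group, with an edgeR adjusted p up to 0.127. DESeq2 gave 1 rise and 3 falls in this list. Leaving out BBOX1 replicate 1 gave 1 and 6, where 2447 of 16685 tested genes fell, and the share that rose is not given. Shares over all genes are also not given for the DESeq2 and unadjusted counts of this list. In culture BST1 was lost without empty-vector replicate 3 (edgeR adjusted p = 0.138) and NT5E without BBOX1 replicate 1 (edgeR adjusted p = 0.0617). From culture to xenograft 5 rose and 4 fell of 16 with the empty vector (35.5% and 33.1% over all genes), and 5 and 6 of 14 with BBOX1 (36.1% and 32.1%). Of these calls 3 rises and 2 falls with the empty vector, and 2 and 2 with BBOX1, FAP among the latter rises, were of genes that passed the filter only through the group where they were higher. ECE1, the endothelin-converting enzyme, rose by 0.88 and 0.77, CPD, a carboxypeptidase, changed by -0.86 and -1.37, and FAP was at least 29.1-fold higher with BBOX1.

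Glutathione turnover genes, 14 listed, gave 1 rise, GSS at 0.17, of 8 tested in culture, where 8.44% of all rose. In xenografts 0 of 10 were called with BBOX1, also by DESeq2 and at an unadjusted p under 0.05 in edgeR. Without BBOX1 xenograft replicate 1, 2 rose and 1 fell, where 2447 of 16685 tested genes fell, and the share that rose is not given. From culture to xenograft 3 rose and 5 fell of 10 with either vector, where 35.5% and 33.1% of all genes did with the empty vector and 36.1% and 32.1% with BBOX1. Of the rises GGT2 and GGT5 passed the filter only through the xenografts, with either vector. GCLM, a subunit of glutamate-cysteine ligase, changed by -1.57 and -1.86. CHAC1, which degrades glutathione in the cytosol, changed by -1.97 with the empty vector. GGT5, the paralogue of GGT1, was at 0 in culture and at least 45.3-fold and 52.5-fold higher in xenografts, and GGT7 rose by 0.59 with BBOX1. 

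Relatives and substrate enzymes of AGXT2, 13 listed, gave 1 fall of 8 in culture, ALDH6A1 at -0.41, and 1 of 9 in xenografts, HIBADH at -0.51 (edgeR adjusted p = 0.0493), where 7.96% and 3.63% of all genes fell. The ALDH6A1 call was lost without empty-vector culture replicate 3 (edgeR adjusted p = 0.136). The HIBADH call was lost without any xenograft other than BBOX1 replicate 1 (edgeR adjusted p up to 0.21). Without BBOX1 xenograft replicate 1, 1 of the list rose and 3 fell. Over all, 2447 of 16685 tested genes fell, and the share that rose is not given. From culture to xenograft 5 rose and 2 fell of 9 with the empty vector (35.5% and 33.1% over all genes), and 3 and 1 of 9 with BBOX1 (36.1% and 32.1%), ABAT each time only through the xenografts. DDAH2, which degrades dimethylarginine, rose by 1.80 and 1.88, PHYKPL by 1.64 and 2.11, and OAT fell by 0.55 with BBOX1. Of 10 angiotensin genes only 3 were tested: LNPEP, ATP6AP2 and AGT. LNPEP, which binds angiotensin IV, changed by -0.17 in culture, lost on leaving out either of BBOX1 replicates 2 and 3 or of empty-vector replicates 1 and 3 (edgeR adjusted p up to 0.102). In xenografts 0 were called with BBOX1, also by DESeq2 and at an unadjusted p under 0.05 in edgeR. From culture to xenograft ATP6AP2, the prorenin receptor, changed by 0.62 and 0.44 and LNPEP by -0.78 and -0.52. AGT, angiotensinogen, changed by 0.74 and 0.59, lost without any empty-vector culture or empty-vector xenograft replicate 1 for the first (edgeR adjusted p up to 0.304) and without BBOX1 culture replicate 1 or 3 or BBOX1 xenograft replicate 3 for the second (up to 0.117).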

How the data were processed

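Per the labels, polyadenylated RNA was sequenced as paired ends of 100 bases from libraries of a kit that does not mark strand. The authors deposited raw read counts per gene, whole numbers not normalised. The submitters' processing notes name fastp, STAR, DESeq2 and featureCounts, with hg38 as build; in the sources used here, their versions and roles, the annotation, the strand setting and any mouse read removal are not given. All 58735 identifiers and names equal those of GENCODE 29, which gave coordinates and exon lengths.

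Counts were tested in edgeR 4.0.16 (R 4.3.3): TMM, filterByExpr with a minimum count of 10, quasi-likelihood F test, Benjamini-Hochberg over all genes tested, threshold 0.05. A gene was said to pass only through 1 group where fewer than 3 libraries of the other reached the filter's minimum. Each comparison of 2 groups was fitted alone; the difference of BBOX1 effects used all 12 libraries. SE is the absolute log2 fold change over the square root of F. CPM used TMM over 12 libraries, and log2 CPM a prior count of 2. Floors of 3 counts reflect counting error alone, because without molecular identifiers reads need not be separate molecules. Alternatives were DESeq2 1.42.0 and its size factors, 2 other filters, a replicate block, 1 fit of 12 libraries and each library left out; summing GGT1 with its relatives was chosen after seeing the data. The tests were tested on simulated data.

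The 9 genes, the gene lists and the tests were chosen with earlier results of these data known. Besides the 9 genes and BBOX1, up to 3 genes of smallest p past the threshold were named per list and comparison, up to 3 most abundant per marker list, and the 3 protein-coding genes of highest correlation with each member.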

Additional observations from a re-analysis of the deposited data

Results flagged for a closer look

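Among the members and the gene lists set beside them, markers aside, the effect of BBOX1 differed between xenografts and culture in 6 genes. This was by the test of the difference itself (edgeR, all 12 libraries, adjusted over 16927 genes). The difference, xenografts minus culture on the log2 scale, was -1.31 for ANPEP, which was lower with BBOX1 in both settings. It was -0.55 for GGT1, which was higher with BBOX1 in all 3 culture libraries and lower in all 3 xenografts. The GGT1 call was lost with the replicate block (edgeR adjusted p = 0.0554). It was also lost without BBOX1 culture replicate 1 or 3 or empty-vector culture replicate 2 or 3 (edgeR adjusted p up to 0.0567). AGXT2 had a difference of -2.15 that rests on 36 counts over the 6 cultures. Its call was lost with the replicate block (edgeR adjusted p = 0.0706) and on leaving out any of 9 of the 12 libraries (edgeR adjusted p up to 0.237). Among the scaffold genes it was -2.27 for USH1C and -0.78 for SLC9A3R1, and among other peptidases -0.63 for ERAP2, a call lost with the replicate block and on leaving out any of 9 of the 12 libraries (edgeR adjusted p up to 0.103). These 6 were 3 of 9 members, 2 of 17 tested scaffold genes and 1 of 16 tested peptidases, where 5.19% of all genes tested were called. Called were 0 of 14 endocytosis partners, 0 of 10 glutathione genes, 0 of 9 AGXT2 relatives and 0 of 3 angiotensin genes. Among the marker lists, 1 of 13 tested proximal tubule markers rose. In 2 of 9 carcinoma line markers and 1 of 8 fibroblast and pericyte markers the difference was a fall. Over all genes 1.93% rose and 3.26% fell.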

How the results depend on the processing

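Size factors of DESeq2 changed no count of calls by over 1.5 times. With all 12 libraries in 1 fit, members called in culture went from 1 that rose and 2 that fell to 0 and 0, with 1 gene called in each direction among 16927, and the fall of 1 member from culture to xenograft with BBOX1 went to 0, as it did with a filter of 1 CPM. With no filter on low counts, members that fell in the difference went from 3 to 5. Replicate numbers did not pair the samples: same-numbered correlations ran from -0.083 to 0.037. With the replicate block, members that fell were 2 in xenografts (4 without the block), 0 from culture to xenograft with BBOX1 (1 without) and 1 in the difference (3 without). Leaving out each library in turn gave 2 to 6 members that fell in xenografts and 1 to 5 in the difference. From culture to xenograft with BBOX1 it gave 0 to 2. The share of all genes called moved as well, as given above for leaving out BBOX1 xenograft replicate 1. The cause was not tested. Uncalled values that changed sign were ENPEP in culture (-0.0275 to 0.0700 when single libraries were left out), DPP4 from culture to xenograft with BBOX1 (-0.52 to 0.19 likewise, positive without BBOX1 xenograft replicate 2 or 3) and LRP2 in xenografts. LRP2 was -0.00519 with no filter, -0.0427 with the replicate block, and -0.61 to 0.46 when single libraries were left out, lowest without BBOX1 replicate 1. Summing GGT1 with its relatives changed no call. Among list genes, the xenograft falls of SLC9A3R1, ERAP2, FCGRT and HIBADH were lost with the replicate block (edgeR adjusted p = 0.107, 0.0585, 0.0534 and 0.0962), as was the AGT rise with BBOX1 (0.0556). Low counts limit LRP2 in every group and AGXT2, CUBN and ENPP3 in culture.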

Other observations

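Other proximal tubule markers moved from culture to xenograft as well. Of the 13 of 22 that could be tested, 12 rose and 1 fell with the empty vector, and 11 rose and 1 fell with BBOX1, by edgeR over all genes, of which 35.5% rose and 33.1% fell with the empty vector and 36.1% and 32.1% with BBOX1. AQP1, ACSM2A, ACSM2B and SLC22A2, and with BBOX1 also GATM, were among those that passed the filter only through the xenografts. The filter itself favoured a difference in these. AQP1, the water channel of the proximal tubule, went from a mean of 0.164 to 163 CPM with the empty vector and from 0.146 to 138 CPM with BBOX1. ACSM2A, a mitochondrial medium-chain acyl-CoA synthetase of kidney, went from 0.0445 to 25.5 CPM and from 0.0124 to 42.3 CPM. SLC4A4, the sodium bicarbonate cotransporter, was the most abundant of the list in culture, at 117 and 110 CPM, and was at 90.5 and 73.9 CPM in xenografts. HNF4A had 0 counts in culture and 23 and 16 counts over the xenograft groups. For BBOX1 against the empty vector in xenografts, 1 of 13 tested markers of this list rose and 1 fell (1.91% and 3.63% over all genes). The list's median log2 fold change there was 0.22 against 0.02 for all genes, and that of the 9 members was -0.49. In the difference of the BBOX1 effect 1 of 13 rose and 0 fell (1.93% and 3.26% over all genes), with a median of 0.40.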
